A study of Homo sapiens with 12 samples.

Results

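Ribosomal RNA and the most abundant small structured noncoding RNAs were followed across HEK293T lines that express different forms of EZH2. The set holds 8 of the 14438 rows of the count table, chosen by symbol: RN7SL1, RN7SL2, RN7SK, RPPH1, RMRP, SNORD3A, RNA28S5 and RNA45S5. All 8 were present, had counts in every library and entered the tests. The set was proposed with values of these libraries in view, so the high levels of its members are given as a description.

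EZH2 is the catalytic subunit of the Polycomb repressive complex PRC2, which methylates lysine 27 of histone H3. HEK293T is a human embryonic kidney cell line. Each of 4 lines was infected with lentivirus carrying EZH2 WT, the gain-of-function (GOF) forms EZH2 Y641F or EZH2 A677G, or the loss-of-function (LOF) double mutant EZH2 H689A/F667I, and each line gave 3 replicates. They are called the WT, Y641F, A677G and LOF lines below. All lines keep their own EZH2, the EZH2 WT line also carries a virus, and every form is represented by 1 selected line, so the form of EZH2 and the line cannot be told apart. Each mutant line was set against the EZH2 WT line, EZH2 Y641F against EZH2 A677G, and the mean of both GOF lines against the LOF line.

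The small RNAs of the set are the RNA parts of enzymes and particles. RN7SL1 and RN7SL2 encode 7SL, the RNA scaffold of the signal recognition particle, which brings ribosomes that make secreted and membrane proteins to the endoplasmic reticulum. RN7SK encodes 7SK, which holds the elongation kinase P-TEFb inactive. RPPH1 and RMRP are the catalytic RNAs of RNase P, which trims the 5′ ends of tRNA precursors, and of RNase MRP, which cuts the precursor of ribosomal RNA (rRNA). SNORD3A encodes U3, the small nucleolar RNA needed for the first cuts that release 18S rRNA. RNA45S5 is the long precursor that RNA polymerase I makes, and RNA28S5 is the rRNA of the large ribosomal subunit that is cut from it. 7SL, 7SK, RNase P RNA and RNase MRP RNA are made by RNA polymerase III (Pol III). Their mature forms carry no poly(A) tail, and the libraries were made with a kit that selects poly(A) RNA, so the values measure what was carried through that selection rather than the full amount in the cell.

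How far the rows can be told apart rests on their sequences. The 7SL rows, RN7SL1 and RN7SL2, differ in very few bases. Their alignment held 295 identical columns of 300 (98.3%), with 4 substitutions and 1 base that only RN7SL2 has. Of the 31-base words of RN7SL1, 72.9% also occur in RN7SL2. Reads away from the differing bases can therefore be given to either row, and the split between the rows is uncertain.

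The rRNA rows are nested. RefSeq lists the symbols RNA28S5 and RNA45S5 as older names of gene copies on chrUn_GL000220v1 of GRCh38.p14, where the 45S precursor spans chrUn_GL000220v1:105424-118780 and 28S spans chrUn_GL000220v1:113348-118417, both on the plus strand. The same older names also belong to another rRNA copy, and 95.9% of the 31-base words of its 28S occur in the copy used here, so the copy behind each row is uncertain. Both ends of 28S are shown inside the precursor, because reads across them separate the rows, with 28S in capitals. The first stretch is chrUn_GL000220v1:113318-113377 and the second is chrUn_GL000220v1:118388-118447.
28S start: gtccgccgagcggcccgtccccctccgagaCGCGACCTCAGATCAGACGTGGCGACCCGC
28S end: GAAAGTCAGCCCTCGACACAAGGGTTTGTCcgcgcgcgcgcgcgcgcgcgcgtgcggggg
All 31-base words of 28S (100%) occur in 45S, and they make up 37.8% of those of 45S. A read from within 28S fits both rows, while a read across either boundary, or from the rest of the precursor, fits RNA45S5 alone or another of its products.

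The genes of 3 Pol III transcripts share an element ahead of their start, which is shown because the other small RNAs of the set lack it there. The stretches are the 60 bases before the first transcribed base, in GRCh38, at chr6:52995561-52995620 on the plus strand for RN7SK, chr9:35658018-35658077 on the minus strand for RMRP and chr14:20343408-20343467 on the minus strand for RPPH1. Capitals mark the letters TATA.
RN7SK upstream: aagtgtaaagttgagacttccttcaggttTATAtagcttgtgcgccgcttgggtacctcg
RMRP upstream: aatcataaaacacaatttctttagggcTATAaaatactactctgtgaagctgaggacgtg
RPPH1 upstream: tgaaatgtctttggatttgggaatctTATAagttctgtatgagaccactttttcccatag
TATA, which reads the same on both strands, began 31 bases before the start in RN7SK, 33 in RMRP and 34 in RPPH1. The same window, from -40 to -16, held no TATA in RN7SL1, RN7SL2 or SNORD3A. Of 35116 RefSeq promoters, 6.24% held TATA in that window. The match is a description of these letters only.

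The other annotations also bear on how reads could be divided. They are from a later GENCODE release than the one the study names for Salmon, so the genes present in its counting may differ. RN7SL1 lies within the span of RPS29, a ribosomal protein gene on the opposite strand. No other single GENCODE gene held more than 72.9% of the words of RN7SL1 in its transcripts, so RPS29 transcripts do not hold all of it. Whether counting used the strand is not given in the sources used here, and how reads were divided between these genes is not known. RN7SL2 and RPPH1 lie within long noncoding RNA genes on the same strand that hold 100% of their 31-base words. RN7SK overlaps a same-strand entry named 7SK, which also holds 100% of its words. Words of RN7SK occur in 105 other GENCODE genes and words of RN7SL1 in 1100. RMRP (ENSG00000277027.1, chr9:35657754-35658017) shared 0% of its words with another gene. SNORD3A (ENSG00000263934.5, chr17:19188016-19188714) shared 81.0% of its words with SNORD3B-2, a second U3 gene.

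The counts of a library summed to between 32137700 and 44562413, with a median of 38711708.5. Of 10 marker genes of HEK293T and embryonic kidney, 9 were among the genes tested, and PAX2 was not. Of 9 marker genes of blood, endothelium, fibroblasts and hepatocytes, 2 were among the genes tested, at up to 9.72 CPM. LHX1, EYA1 and KRT8 of the HEK293T and embryonic kidney markers also stayed below that level, and the others tested stood above it. CPM are counts scaled to the library total and by TMM. EZH2 stood at 154 to 163 CPM in the WT line, 209 to 228 in Y641F, 165 to 182 in A677G and 206 to 210 in the LOF line, the row holding reads from the introduced and the resident gene alike. Nothing says that the replicates came from separate infections, so p-values measure the spread between these samples.

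Together, the 8 RNAs took 11.3% to 13.9% of the counts of a library, with a median of 12.9%. The 6 small RNAs held nearly all of it, at 11.2% to 13.7%, and the rRNA rows held 0.0601% to 0.139%. By mean CPM, RN7SL1, RN7SL2, RN7SK, RPPH1 and RMRP were ranks 1 to 5 of the table, and SNORD3A was rank 9. RNA45S5 was rank 250 and RNA28S5 rank 289. RN7SL1 alone took 4.10% to 5.20% of a library.

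Per kilobase of gene model, the order by level remained similar. RN7SL1 stood at 160647 CPM per kilobase, RN7SL2 at 106431, RN7SK at 54150, RPPH1 at 45961 and RMRP at 45047. SNORD3A stood at 3527 over the GENCODE model of 699 bases and at 11362 over the RefSeq model of 217 bases, below RMRP with either model. RNA28S5 stood at 79.4 and RNA45S5 at 33.0 CPM per kilobase. The small RNA rows thus had far more counts per kilobase than the rRNA rows in these libraries.

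For 7SL, RN7SL1 stood at 52002, 48119 and 43154 CPM in the replicates of WT and at 45269, 52135 and 40395 in those of Y641F. In A677G it stood at 46432, 46430 and 52421 CPM, and in the LOF line at 51975, 48702 and 49366. All lines overlapped, and the lowest and one of the highest libraries were both of Y641F. RN7SL2 stood at 32836, 33264 and 30370 CPM in WT, at 28581, 35503 and 27057 in Y641F, at 31356, 32156 and 34183 in A677G and at 35328, 32047 and 30470 in the LOF line. Its lines overlapped as well. The ratio of RN7SL1 to RN7SL2 counts in a library had means of 1.48 ± 0.0875 in WT, 1.52 ± 0.0608 in Y641F, 1.49 ± 0.045 in A677G and 1.54 ± 0.076 in the LOF line (SD, n = 3). With both rows summed, to set aside the uncertain split, the log2 fold change against WT was -0.07 (SE 0.0536) in Y641F, 0.02 (SE 0.0536) in A677G and 0.05 (SE 0.0536) in the LOF line, and the edgeR quasi-likelihood test gave adjusted p-values of 0.555, 0.893 and 0.868. In bulk RNA, fewer cells with a transcript and less of it per cell cannot be told apart.

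RN7SK, the scaffold of the P-TEFb inhibitor, stood at 17561, 17229 and 16272 CPM in WT and at 18638, 17724 and 18518 in the LOF line. All LOF replicates were above all WT replicates. The log2 fold change was 0.10 (SE 0.037) and did not pass the test (edgeR quasi-likelihood, Benjamini-Hochberg adjusted p = 0.367). Replicates that did not overlap between LOF and WT, in either direction, were found for 15% of all genes tested, so RN7SK was 1 of 8 members against that share. In Y641F it stood at 17713, 19318 and 16881 CPM and in A677G at 17456, 17420 and 18405, overlapping WT in both.

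RPPH1, the RNA of RNase P, stood at 15045, 15746 and 14812 CPM in WT, at 14185, 16764 and 13533 in Y641F, at 15201, 14893 and 15454 in A677G and at 17239, 15852 and 14936 in the LOF line. Its Y641F replicates lay on both sides of all the WT ones. RMRP, the RNA of RNase MRP, stood at 13275, 11594 and 10339 CPM in WT, at 12207, 13011 and 10593 in Y641F, at 11098, 10710 and 12431 in A677G and at 12770, 12392 and 12290 in the LOF line. The lines overlapped for this RNA too. The related enzymes kept a ratio of RMRP to RPPH1 counts of 0.698 to 0.882 in a library.

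SNORD3A, the U3 RNA, stood at 2632, 2666 and 2410 CPM in WT and at 2487, 2503 and 2201 in A677G. In Y641F it stood at 2256, 3069 and 2054 CPM and in the LOF line at 3016, 2596 and 1697. The coefficient of variation between replicates was 5.41% in WT and 7.11% in A677G, but 21.8% in Y641F and 27.7% in the LOF line. Replicate 3 was the lowest of its line in all 4 lines, which also held for RNA45S5 and for 1.39% of all genes tested.

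**Figure D1:**
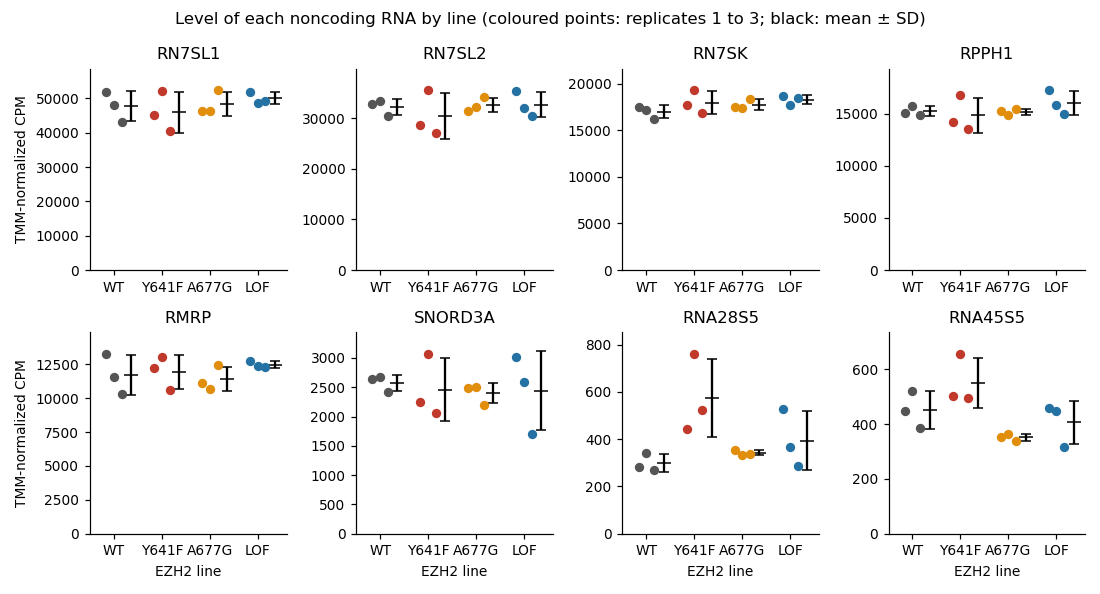
Each panel gives 1 RNA, with TMM-normalized CPM from 0 on the y axis and the lines on the x axis; coloured points are the replicates 1 to 3, and the black mark and bar are their mean ± SD. Lines overlap in the panels of the small RNAs except that RN7SK is higher in all LOF replicates than in all WT replicates, while RNA28S5 is higher in all Y641F replicates (444 to 761 CPM) than in those of WT (270 to 342 CPM).

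Across the 6 small RNAs and the 3 mutant lines, the log2 fold changes against WT ran from -0.10 to 0.10, and 0 of these 18 values passed the test (edgeR quasi-likelihood, Benjamini-Hochberg adjusted p of 0.235 or more). Of all genes tested, 7.68% were called in Y641F, 8.55% in A677G and 0.301% in the LOF line. At an unadjusted p under 0.05 there were 2, RN7SK in Y641F (0.08, SE 0.037) and in the LOF line, and DESeq2, limma voom and the exact test of edgeR called 0. When a fit held the compared lines alone, SNORD3A in A677G (-0.10, adjusted p = 0.0369) and RN7SK in the LOF line (0.10, adjusted p = 0.0429) were called. RN7SK in Y641F was called without Y641F replicate 3 (0.12, adjusted p = 0.0326, up to 0.716 under the other alternatives). Their 95% intervals lay between 0.802 and 1.15 of the WT level, and without SNORD3A between 0.873 and 1.15. In the comparison of the GOF mean with the LOF line, 0 of 8 members were called (edgeR quasi-likelihood), with 1 at an unadjusted p under 0.05 (RPPH1, log2 fold change -0.09, SE 0.041), where 12.6% of all genes were called and 23.8% had such an unadjusted p. DESeq2 called 0 members in that comparison and limma voom called 1. The library Y641F replicate 2, the highest of its line in all 6 small RNAs, decides some of these calls. Without it, RN7SL1 was lower in Y641F than in WT by -0.15 on the log2 scale (adjusted p = 0.0485), RN7SL2 by -0.21 (adjusted p = 0.0011) and RPPH1 by -0.13 (adjusted p = 0.0245), against adjusted p-values up to 0.967, 0.978 and 0.972 under the other alternatives. Also without it, RN7SL2 was lower than in A677G by -0.22 (adjusted p = 0.0067, up to 0.954 in the others), and RN7SL1 (-0.13), RN7SL2 (-0.11) and RPPH1 (-0.14) were called lower in the GOF mean than in the LOF line. RPPH1 was also called there without LOF replicate 3 (-0.14, adjusted p = 0.0448, range over its alternatives 0.00113 to 0.755).

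In the rRNA rows, by contrast, some lines stood apart. RNA28S5 stood at 283, 342 and 270 CPM in WT and at 444, 761 and 523 in Y641F. In A677G it stood at 356, 334 and 337 CPM and in the LOF line at 529, 369 and 285. Every Y641F replicate was above every WT and every A677G replicate, and the LOF replicates spread across the range of WT and Y641F.

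RNA28S5 rose in Y641F against WT, with a log2 fold change of 0.95 (SE 0.127), or 1.93-fold (95% interval 1.61 to 2.31; edgeR quasi-likelihood, Benjamini-Hochberg adjusted p = 1.5e-06). It passed in 17 of 17 alternatives, with log2 fold changes of 0.70 to 1.10 and adjusted p-values of up to 0.00618. With A677G the log2 fold change was 0.20 (SE 0.127, adjusted p = 0.409, edgeR quasi-likelihood), called in a fit of the compared lines alone (adjusted p = 0.0022, up to 0.757 in the others), and with the LOF line it was 0.40 (SE 0.127, adjusted p = 0.269). The LOF value rests on single libraries: it was 0.13 without LOF replicate 1 (adjusted p = 0.925) and 0.59 without LOF replicate 3 (adjusted p = 0.0172), the lowest and highest of its 17 alternatives in log2 fold change. It also passed in a fit of the compared lines alone (0.40, adjusted p = 0.0395).

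RNA45S5, the precursor, stood at 448, 522 and 385 CPM in WT and at 503, 656 and 494 in Y641F. In A677G it stood at 352, 365 and 338 CPM and in the LOF line at 458, 447 and 315. The A677G replicates were below all those of WT and Y641F, and Y641F overlapped WT.

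RNA45S5 fell in A677G against WT, with a log2 fold change of -0.36 (SE 0.0904), or 0.777 of the WT level (95% interval 0.684 to 0.882; edgeR quasi-likelihood, Benjamini-Hochberg adjusted p = 0.00644). It passed in 15 of 17 alternatives. It did not pass without WT replicate 2 (-0.25, adjusted p = 0.142) or with DESeq2 (adjusted p = 0.213), the range over the alternatives being 2.23e-06 to 0.213. In Y641F the row rose by a log2 fold change of 0.29 (SE 0.0899), or 1.22-fold (95% interval 1.07 to 1.38, adjusted p = 0.0423, edgeR quasi-likelihood), and this call was close to the threshold. It passed in 11 of 17 alternatives, with adjusted p-values from 0.000609 to 0.39, and was lost without WT replicate 1 (0.28), without WT replicate 3 (0.18), without Y641F replicate 2 (0.14), with upper-quartile factors (0.27), with limma voom (0.26) and with DESeq2 (0.29). In the LOF line the log2 fold change was -0.15 (SE 0.0903, adjusted p = 0.695, edgeR quasi-likelihood).

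Against WT, the calls thus covered 2 of 8 members in Y641F, both higher, where 7.68% of all genes were called and 2.09% were called higher. They covered 1 of 8 in A677G, lower, where 8.55% of all genes were called and 6.48% were called lower. In the LOF line 0 of 8 were called (edgeR quasi-likelihood), where 0.301% of all genes were called. At an unadjusted p under 0.05 the LOF line had 2 members, RN7SK and RNA28S5, where 8.3% of all genes had such a p, and DESeq2, limma voom and the exact test of edgeR called 0. Without overlap of replicates, Y641F had 1 member (20.9% of all genes) and A677G had 1 (27.2%). All 3 comparisons use the same WT libraries. The median log2 fold change of the members was -0.01, 0.01 and 0.07 in Y641F, A677G and the LOF line, beside a median of 0 over all genes in each.

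**Figure D2:**
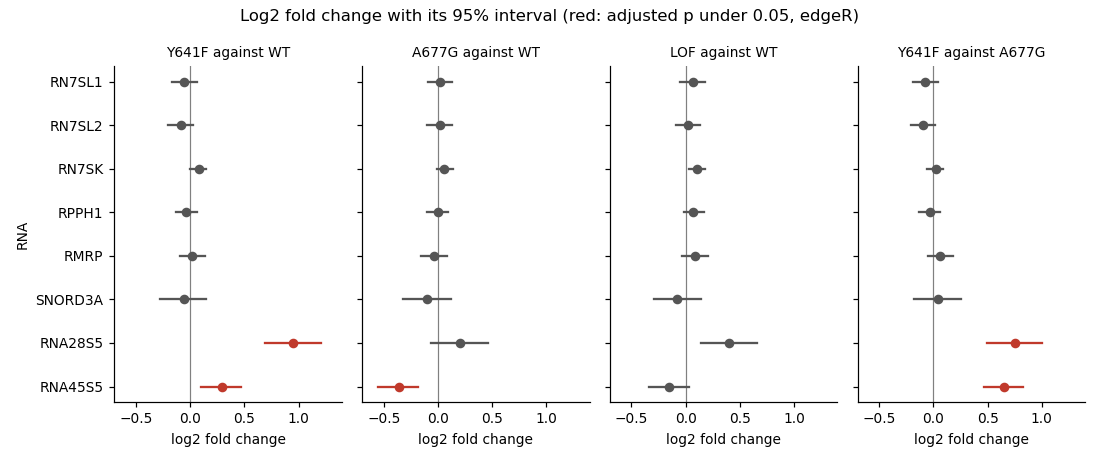
Each panel is 1 comparison, with the log2 fold change on the x axis and the RNAs on the y axis; points are estimates, bars their 95% intervals, and red marks an adjusted p under 0.05. The 6 small RNAs stay between -0.10 and 0.10 in all panels, while RNA28S5 reaches 0.95 in Y641F and RNA45S5 reaches -0.36 in A677G.

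The GOF lines also differed from each other in both rRNA rows. RNA28S5 was higher in Y641F than in A677G by a log2 fold change of 0.75 (SE 0.126), or 1.68-fold (95% interval 1.41 to 2.01; edgeR quasi-likelihood, Benjamini-Hochberg adjusted p = 0.00193). RNA45S5 was higher by 0.65 (SE 0.0903), or 1.57-fold (95% interval 1.38 to 1.78, adjusted p = 6.48e-05). By p-value they were ranks 6 and 4 of all genes, in a comparison in which 12 genes, or 0.0841%, were called and 0.0701% were called higher in Y641F. The replicates of both rows did not overlap, which held for 10.2% of all genes. Each passed in 16 of 17 alternatives and was lost with DESeq2, with adjusted p = 0.373 for RNA28S5 and adjusted p = 0.0758 for RNA45S5, the highest of their ranges. Without Y641F replicate 2, which holds the highest value of both rows, the log2 fold changes were 0.50 and 0.51. Against the LOF line, the GOF mean differed by 0.17 (SE 0.11, adjusted p = 0.361, edgeR quasi-likelihood) for RNA28S5 and by 0.11 (SE 0.0785, adjusted p = 0.413) for RNA45S5. Without LOF replicate 1 the RNA28S5 value was 0.44 (adjusted p = 0.00515, up to 0.962 in the other alternatives).

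Because 28S lies within 45S, the rows were also summed. The sum rose in Y641F by a log2 fold change of 0.59 (SE 0.104, adjusted p = 0.000136, edgeR quasi-likelihood) against WT and by 0.70 (SE 0.104, adjusted p = 0.00024) against A677G. In A677G against WT it was -0.11 (SE 0.104, adjusted p = 0.611), so the lower value of RNA45S5 there was not called for rRNA counts as a whole. In the LOF line it was 0.09 (SE 0.104, adjusted p = 0.868).

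Within a library, the ratio of RNA28S5 to RNA45S5 counts does not depend on depth. It was 0.632, 0.654 and 0.701 in WT and 0.883, 1.16 and 1.06 in Y641F. In A677G it was 1.01, 0.917 and 0.999, and in the LOF line 1.15, 0.826 and 0.905. All 9 mutant libraries were above all 3 WT libraries, and the mutant lines overlapped one another. The ratio was chosen after its values were seen, and how reads from 28S were divided between the rows was not tested.

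**Figure D3:**
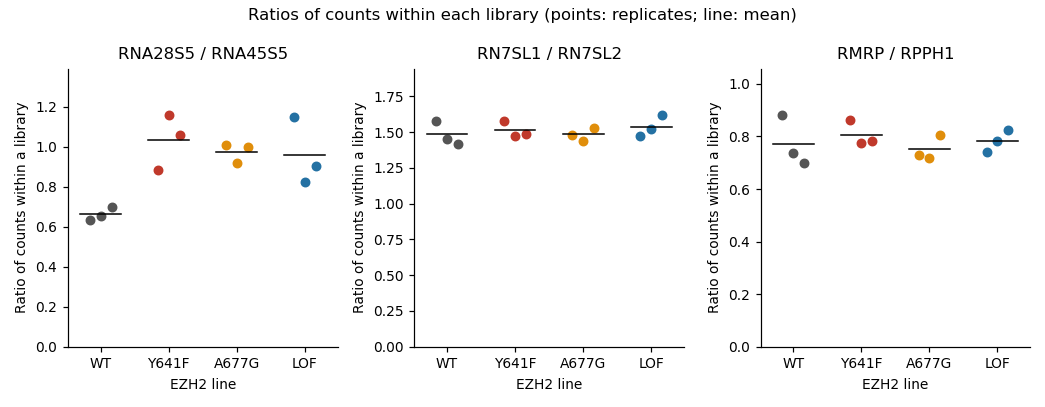
Each panel gives a ratio of counts of named RNAs within a library on the y axis, from 0, against the lines on the x axis; points are replicates and the line is their mean. The ratio of RNA28S5 to RNA45S5 is 0.632 to 0.701 in WT and 0.826 to 1.16 in the mutant lines, while the means of RN7SL1 to RN7SL2 run from 1.48 to 1.54.

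RNA18S5, the rRNA of the small subunit and not a member, is named here because it is cut from the same precursor. It had 39, 40 and 9 counts in WT, 34, 54 and 164 in Y641F, 42, 23 and 65 in A677G and 41, 66 and 31 in the LOF line. These counts are far below those of RNA28S5, which had 8952 to 28972 in a library. 18S also lies within the span of 45S, so a read from within 18S fits RNA45S5 as well. How such reads were divided is not known, so the low counts of this row do not measure the amount of 18S. All lines overlapped in the counts of RNA18S5. Its call in Y641F (log2 fold change 1.35, SE 0.422, adjusted p = 0.0407, edgeR quasi-likelihood) rests on replicate 3: without that library the log2 fold change was 0.47 (adjusted p = 0.638). This alternative was added for RNA18S5 after its values were seen.

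Among the members, the spread between replicates was smallest for RN7SK and largest for RNA28S5. The biological coefficient of variation was 0.0379 for RN7SK and 0.108 for RNA28S5, against 0.0471 over all genes, and these were at percentiles 23.6 and 77.8 of all genes. Over the 12 libraries, which share lines and preparation, the 10 pairs of the 5 Pol III RNAs had Pearson correlations of log2 CPM of 0.57 to 0.92, with a median of 0.78. SNORD3A correlated at 0.19 to 0.71 with these RNAs. The small RNAs and the rRNA rows correlated at 0.03 to 0.59 over the libraries. Taken as deviations from the line means, they correlated at 0.29 to 0.91, with SNORD3A at 0.87 with RNA28S5 and 0.91 with RNA45S5, RPPH1 at 0.89 and 0.81 and RN7SL2 at 0.81 and 0.76. The rRNA rows correlated at 0.86 with each other in the same way. These values are descriptions of 12 samples and carry no test.

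The genes whose log2 CPM was most like each member over the 12 samples were taken from 12032 genes. For RN7SL1 they were RPS4X (0.97) and RPL14 (0.93), for RPPH1 CYC1 (0.96) and RPL24 (0.93) and for RMRP RPL19 (0.91) and TMEM141 (0.86). For RN7SL2 they were SIVA1 (0.98) and RPL35 (0.95), and for RN7SK HAX1 (0.89) and LHX4 (0.87). For SNORD3A they were DNLZ (0.94) and CLIC1 (0.92), for RNA28S5 SNX13 (0.92) and CNIH1 (0.87) and for RNA45S5 MTURN (0.84) and LYSMD4 (0.83). These are the nearest 2 genes only.

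The protein partners of these RNAs were read from lists of genes. In the 7SK particle with P-TEFb, 0 of 7 genes were called in any of the 5 comparisons (edgeR quasi-likelihood), with 0 or 1 at an unadjusted p under 0.05 in each, and DESeq2, limma voom and the exact test of edgeR called 0. In the proteins of RNase P and RNase MRP, 0 of 10 were called (edgeR quasi-likelihood), with 0 or 1 at an unadjusted p under 0.05, and 0 by the other tools. Of the 8 genes for signal recognition particle proteins and their receptor, 1 was lower in A677G than in WT. It was SRPR, the receptor subunit also named SRPRA (log2 fold change -0.18, SE 0.0536, adjusted p = 0.0251, edgeR quasi-likelihood). Of all genes, 8.55% were called in that comparison and 6.48% were called lower. In the other comparisons 0 of the 8 were called, with at most 2 at an unadjusted p under 0.05 and 0 by the other tools.

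Of 18 box C/D and U3 particle proteins, 0 were called against WT in any line (edgeR quasi-likelihood), with 3, 1 and 2 at an unadjusted p under 0.05. DESeq2 called 1 higher in the LOF line, and limma voom called 1 lower in A677G and 1 higher in the LOF line. In the GOF mean against the LOF line, where 12.6% of all genes were called, 2 of 18 were lower, near that share: IMP4, a U3 particle protein (-0.17, SE 0.0408, adjusted p = 0.00314, edgeR quasi-likelihood), and NOP56, a core box C/D protein (-0.12, SE 0.0301, adjusted p = 0.00512). Of 15 genes of RNA polymerase I and its factors, 1 was lower in A677G than in WT, where 8.55% of all genes were called and 6.48% were called lower. It was TAF1C, of the promoter selectivity factor SL1 (-0.23, SE 0.0659, adjusted p = 0.0189, edgeR quasi-likelihood). In the GOF mean against the LOF line, 1 of the 15 was lower, TWISTNB, a subunit of the polymerase (-0.12, SE 0.0369, adjusted p = 0.0282, edgeR quasi-likelihood). Of 28 genes of RNA polymerase III and its factors, 0 were called in any comparison (edgeR quasi-likelihood), with 0 to 4 at an unadjusted p under 0.05. DESeq2 called 1 of them lower in A677G, and limma voom called 1 lower there and 1 lower in the GOF mean.

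Other RNAs that end without a poly(A) tail were read in the same way. Of 171 other small structured RNAs, 1 rose in Y641F, SNORA33, a small nucleolar RNA at a mean of 1.37 CPM in WT, 2.34 in Y641F, 2.21 in A677G and 2.55 in the LOF line (Y641F against WT 0.77, SE 0.236, adjusted p = 0.035, edgeR quasi-likelihood). In A677G 1 rose, SCARNA10, an RNA of Cajal bodies (0.14, SE 0.0446, adjusted p = 0.0336, edgeR quasi-likelihood). Of all genes, 7.68% were called in Y641F and 8.55% in A677G against WT. In the LOF line 0 of the 171 were called (edgeR quasi-likelihood), with 6 at an unadjusted p under 0.05, 0 by DESeq2 and 1 each by limma voom and the exact test. Their summed level was 1769 to 1983 CPM in WT and 1693 to 2075 in Y641F. It was 1829 to 2014 CPM in A677G and 1782 to 2115 in the LOF line, so all lines overlapped. RNA28S5 was separate only for Y641F against WT and against A677G. Of 48 replication-dependent histone genes, whose mRNAs end in a stem-loop in place of a poly(A) tail, 0 were called in Y641F (edgeR quasi-likelihood), with 4 at an unadjusted p under 0.05, 1 lower by DESeq2 and by limma voom, and 0 by the exact test. Their summed level was 13606 to 14320 CPM in WT and 12950 to 14482 in Y641F, which overlap. It was 13615 to 13663 CPM in A677G and 14321 to 14789 in the LOF line, whose range lay above that of A677G and overlapped that of Y641F. The lowest LOF value, 14321 CPM, was next to the highest WT value, 14320 CPM, so these ranges were barely apart. Carry-over of RNA without a poly(A) tail into the libraries was not measured in another way, and its part in the rRNA differences was not tested.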

How the data were processed

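RNA-seq was analysed for 12 samples, 3 per line. Per the labels and the study's methods, total RNA went into TruSeq Stranded mRNA libraries, reads were trimmed with Trim Galore 0.6.5 and aligned with STAR 2.7.9a to GRCh38, and Salmon 1.2.0 estimated transcript abundance. The authors deposited whole-number counts per gene symbol, without normalization. The step to counts per symbol and the gene filter are not given in the sources used here.

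The analysis used edgeR 4.0.16 in R 4.3.3. Counts were scaled by TMM, and a quasi-likelihood test was fitted to the 12 samples with 1 coefficient per line. 175 genes at 0 in every replicate of a line were left out, which removed no member, and 14263 were tested. A gene was called where its p-value, adjusted after Benjamini and Hochberg over the genes tested, was under 0.05. Log2 CPM used a prior count of 2. Likeness used genes whose mean log2 CPM reached 1. Intervals are 95% and for fits only.

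The members and gene lists were chosen with earlier results of these data known. Named genes were all members, up to 3 called genes of each list and comparison by size of change, 2 most alike genes per member, and EZH2. Histone genes in the GOF comparison are in the closing section. Mitochondrial rRNA was not analysed here. The level of 1 marker gene and some sequences are not reported here. Alternatives were DESeq2 1.42.0, edgeR's exact test, and limma 3.58.1 voom with sample quality weights, named limma voom throughout. Others were other scalings and filters, compared groups only, a replicate block, leaving out each replicate and summing rows that share sequence. The procedure was tested on simulated data. Sequences and positions came from GRCh38, GENCODE and RefSeq, with a later GENCODE release than the one the study names for Salmon.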

Additional observations from a re-analysis of the deposited data

Results flagged for a closer look

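RNA28S5 and RNA45S5 were picked out because their changes against WT differed between the GOF lines. The difference between Y641F and A677G was 0.75 on the log2 scale for RNA28S5 (SE 0.126, adjusted p = 0.00193, edgeR quasi-likelihood) and 0.65 for RNA45S5 (SE 0.0903, adjusted p = 6.48e-05). All Y641F replicates were above all A677G replicates for both rows, and replicates did not overlap for 10.2% of all genes. The rows were picked out by these same values, which therefore add no further support. DESeq2 called neither row (adjusted p = 0.373 for RNA28S5 and 0.0758 for RNA45S5).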

How the results depend on the processing

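Of 184 alternatives to the counts of called genes and members, 150 stayed within 1.5 times the value reported and 34 moved; the cause was not tested beyond what each alternative changes. No member value that passed in the fit reported changed sign under an alternative. Values that did not pass there could, among them some that passed under an alternative, such as RN7SL1 in Y641F against WT (-0.15 to 0.03). Members called in Y641F against WT were 1 with upper-quartile factors, limma voom, DESeq2 or summed rows, and 1 to 4 when a replicate was left out, the 4 being 1 higher and 3 lower without Y641F replicate 2. For A677G they were 3 with the compared groups only, 0 with DESeq2 or summed rows, and 0 to 1 with a replicate left out. For the LOF line they were 2 with the compared groups only and 0 to 1 with a replicate left out. Between the GOF lines they were 0 with DESeq2, 1 with summed rows and 2 to 3 with a replicate left out. In the GOF mean against the LOF line they were 1 with limma voom and 0 to 3 with a replicate left out. Summing makes 1 row of each pair, so fewer rows can be called.

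Genes called in the LOF line, 43 as reported, were 169 with genes at 0 kept, 88 with the compared groups only, 75 with edgeR's exact test, 99 with limma voom and 11 to 36 with a replicate left out. Between the GOF lines, 12 as reported, they were 178 with genes at 0 kept, 23 with the exact test, 19 with DESeq2 and 8 to 57 with a replicate left out. They were 703 to 1232 in Y641F, 825 to 1042 in A677G and 1203 to 2105 in the GOF mean against the LOF line when a replicate was left out. The exact test was not run for the mean of both GOF lines.

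The replicate numbers are shared between lines. Over all genes, same-numbered samples had correlations of deviations of -0.06 to 0.05 over 18 pairs. Samples of other numbers had -0.07 to 0.07 over 36 pairs. Correlations over all genes cannot settle whether single rows are paired, and SNORD3A and RNA45S5 were lowest in replicate 3 in 4 of 4 lines. With the replicate block, members called were 2, 1, 0, 2 and 0 in the 5 comparisons. The log2 fold change of RNA45S5 was then 0.29 in Y641F (SE 0.057, adjusted p = 0.000609, edgeR quasi-likelihood). In A677G it was -0.35 (SE 0.0573, adjusted p = 3.63e-05, edgeR quasi-likelihood). These SE were smaller than without the block.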

Other observations

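Of the 48 replication-dependent histone genes, 12 were lower and 1 was higher in the mean of the GOF lines than in the LOF line (edgeR quasi-likelihood), beside 12.6% of all genes called in that comparison. DESeq2 called 11 lower and 1 higher, and limma voom called 22 lower and 1 higher. HIST1H2AB, a histone H2A gene, stood at a mean of 133 CPM in Y641F, 123 in A677G and 150 in the LOF line (log2 fold change -0.23, SE 0.0388, adjusted p = 5.17e-05, edgeR quasi-likelihood). HIST4H4, a histone H4 gene, was lower by -0.16 (SE 0.0476, adjusted p = 0.0231). HIST1H3I, a histone H3 gene at under 2 CPM in every line mean, was higher by 1.35 (SE 0.317, adjusted p = 0.00247), and it was lower in the LOF line than in WT by -1.58 (SE 0.35, adjusted p = 0.028). In A677G against WT, HIST1H2AB (-0.17, SE 0.0452, adjusted p = 0.0128) and HIST3H2BB (-0.14, SE 0.0392, adjusted p = 0.0187) fell. These were the 2 of 48 called there, beside 8.55% of all genes called and 6.48% called lower. DESeq2 and the exact test each called 2 of the 48 lower, and limma voom called 7 lower.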
